A study of Mus musculus with 8 samples.

Results

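The interferon-stimulated genes were followed in mouse C57BL/6 cells that carried the leukaemia fusion NUP98-HOXA9, one of its deletion mutants, or an empty vector. The list names 35 genes. A gene counted as measured when a probe set of the array carried its symbol and no other, and where a gene had several such probe sets the one with the highest mean over the 8 arrays was taken. This left 31 measured genes, of 19938 genes with such a probe set. Isg15, the ubiquitin-like modifier, and the GTPase genes Igtp and Gbp2 lay only on probe sets shared with a second gene, and the list's remaining gene, Ifi44, was not matched to any probe set, so no value is given for these 4.

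Total RNA was hybridised to 8 whole-transcript GeneChip arrays, 2 in each of 4 groups. The groups are the empty vector, the full-length fusion, and the mutants that the labels call delFG1 and delFG2. The fusion joins the phenylalanine-glycine (FG) repeat part of the nucleoporin NUP98 to the DNA-binding part of HOXA9, and the study asks which genes depend on the NUP98 part. The sources used here do not give the residues each mutant lacks, the kind of cell or the animals' age. Whether both arrays of a group stem from separate cultures is also unstated, and the p-values therefore cover the spread between these arrays alone, which may be technical.

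Type I interferons bind the receptor IFNAR1-IFNAR2, and the kinases JAK1 and TYK2 then pass the signal on. A factor that holds STAT2 and IRF9 binds the interferon-stimulated response element in front of antiviral genes, while the response to interferon gamma acts through the gamma-activated sequence. The induced genes code for sensors of foreign nucleic acid, for factors that strengthen the response, and for proteins that block viral replication. Myeloid cells and their progenitors respond strongly to interferon, and many of these genes keep a low tonic level without infection.

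Values are log2(intensity + 1), and every difference below is a difference on that scale. The arrays' median intensities lay between 80.7 and 83.2, and the lowest log2 value of any probe set in any array was 4.27. The arrays carry the numbers 1 and 2 in every group, and same-numbered arrays deviated together, so each comparison was fitted with limma both without and with the number as a block (the replicate block); an adjusted p is the Benjamini-Hochberg value over all 21789 tested probe sets, with a threshold of 0.05. The arrays numbered 2 of the full-length fusion and delFG1 correlated with r = 0.999 over all genes, and those numbered 2 of the empty vector and delFG2 with r = 0.998, above the 0.995 to 0.996 between arrays of one group.

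With the full-length fusion 2 interferon-stimulated genes rose and 2 fell, by less than 2-fold each, in the fit with the replicate block, and none passed without it. Without the replicate block 0 of 31 members passed between the full-length fusion and the empty vector by limma, where 0.124% of all tested probe sets passed, and 6 members had an unadjusted p under 0.05 (19.4%, against 9.54% of all). With the replicate block 4 of 31 passed, which is 12.9% of the members against 6.61% of all tested probe sets. The sensor gene Ifih1 and the tetherin gene Bst2 were higher, and the nucleotide kinase gene Cmpk2 and the ubiquitin ligase gene Trim30a were lower. By direction these were 6.45% of the members each way, against 2.18% of all probe sets higher and 4.43% lower. The median difference of the members was 0.05, and that of all probe sets 0.02. The median size of this difference of group means was 0.158 for the members and 0.0805 for all. Between single arrays, which are not averaged, the median size within one group was 0.167 and 0.103. Between the single full-length and empty vector arrays it was 0.25 for the members and 0.12 for all with number 1. With number 2 it was 0.18 and 0.09.

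**Figure D1:**
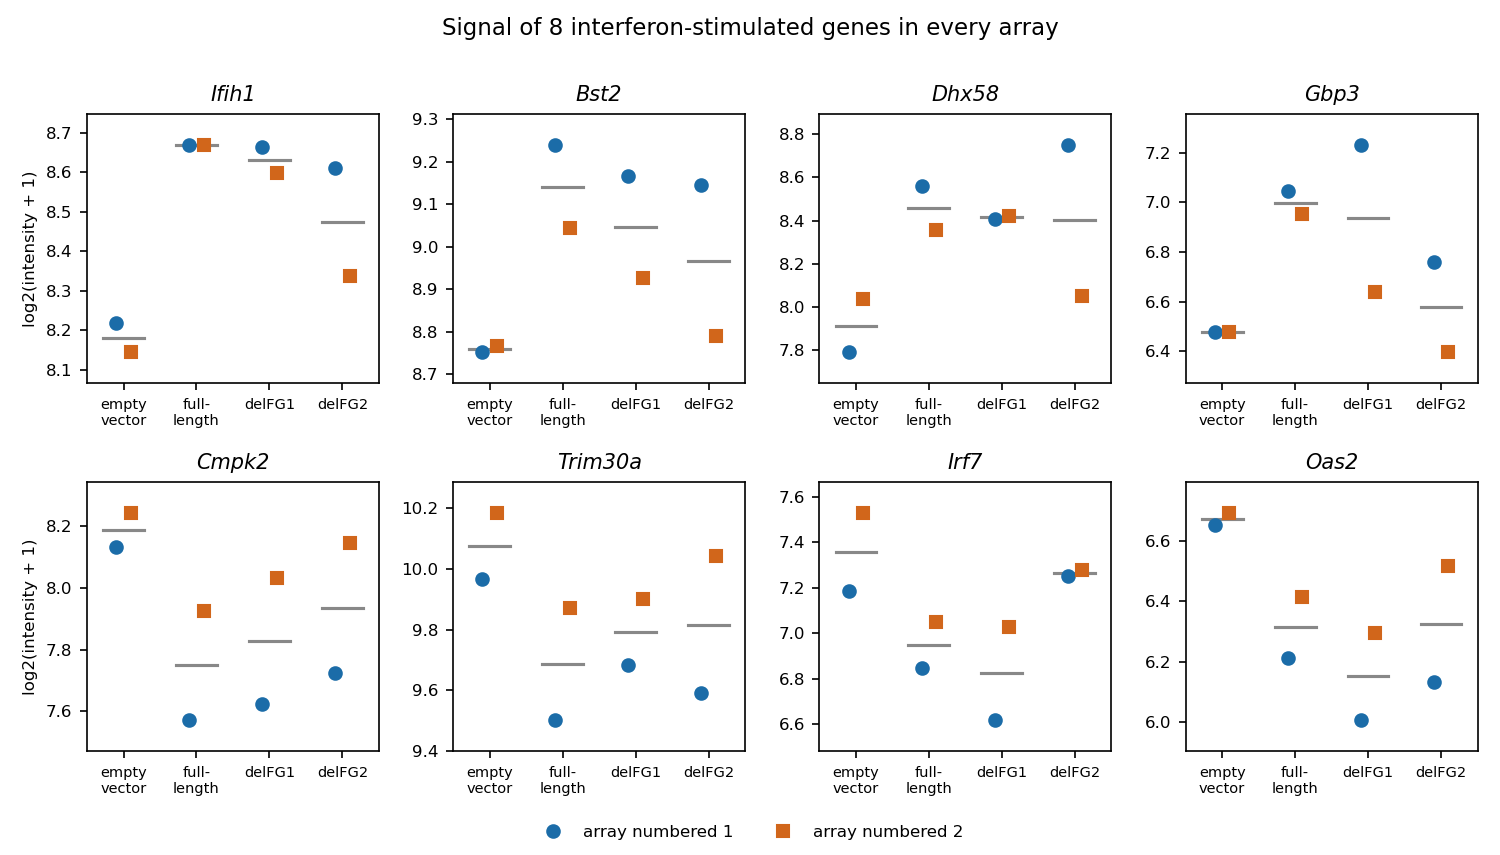
Signal of 8 members in each array, with log2(intensity + 1) on the vertical axis, the 4 groups on the horizontal axis, circles for arrays numbered 1, squares for arrays numbered 2 and grey bars for group means. Ifih1, Bst2, Dhx58 and Gbp3 lie higher in both full-length arrays than in either empty vector array, and Cmpk2, Trim30a, Irf7 and Oas2 lie lower.

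Among the 5 sensors of nucleic acid, Ifih1 was the only one that passed. Ifih1 codes for MDA5, which detects long double-stranded RNA in the cytoplasm. Its values were 8.22 and 8.14 with the empty vector, 8.67 and 8.67 with the full-length fusion, 8.66 and 8.60 with delFG1, and 8.61 and 8.34 with delFG2. All 6 fusion arrays lay above both empty vector arrays, and the delFG2 array numbered 2 was the lowest of the 6. From 8.18 ± 0.05 to 8.67 ± 0.00 (SD, n = 2) the full-length difference was 0.49, or 1.40-fold, with an SE of 0.10 and an adjusted p of 0.0131 by limma with the replicate block (SE 0.12 and 0.257 without it). The call was lost when either full-length array was left out.

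Dhx58, which codes for LGP2, a regulator of MDA5 and RIG-I, had a larger difference and a wider spread. Its values were 7.79 and 8.04 with the empty vector, 8.56 and 8.36 with the full-length fusion, 8.41 and 8.42 with delFG1, and 8.75 and 8.05 with delFG2. The full-length and delFG1 arrays lay above the empty vector arrays, while delFG2 held both the highest value of the 8 and one within 0.02 of the same-numbered empty vector array. The full-length difference of 0.54 had an adjusted p of 0.102 by limma with the replicate block and 0.457 without it. In the remaining sensors, Zbp1, which senses Z-form nucleic acid and triggers cell death, differed by -0.33, Eif2ak2, the kinase PKR that halts translation, by 0.24, and Ddx58, the sensor RIG-I, by 0.10, and none of these 3 passed.

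Zbp1 had its largest difference between delFG2 and the full-length fusion. Its values were 7.32 and 7.78 with the empty vector, 7.07 and 7.37 with the full-length fusion, 7.39 and 7.47 with delFG1, and 7.59 and 7.60 with delFG2. Both mutants lay above both full-length arrays, while the empty vector arrays spanned the mutant values. The difference of delFG2 from the full-length fusion, 0.38, was the largest positive one of any member in that comparison, with an adjusted p of 0.366 by limma with the replicate block.

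Of the 3 measured factors that carry the interferon signal into the nucleus, 0 passed for the full-length group and 1, Irf7, for delFG1, each set against the empty vector with the replicate block. Of all tested probe sets 6.61% and 6.12% passed in these comparisons. Without the block 0 of the 3 passed in either. With delFG1 all 3 differences were below 0, from -0.53 to -0.11 against the empty vector and from -0.22 to -0.13 against the full-length fusion. DelFG2 minus delFG1 was above 0 in all 3, from 0.17 to 0.44. These comparisons share the delFG1 arrays. Irf7 and Irf9 kept these signs in both numbers. For Stat2, delFG2 minus delFG1 was 0.67 with number 1 and -0.22 with number 2, and delFG1 minus the empty vector was -0.28 and 0.07. Irf7, the master factor for interferon alpha production, had values of 7.18 and 7.53 with the empty vector, 6.85 and 7.05 with the full-length fusion, 6.62 and 7.03 with delFG1, and 7.25 and 7.28 with delFG2. Full-length and delFG1 arrays lay below the empty vector arrays, and both delFG2 arrays lay between the empty vector ones. The full-length difference was -0.41 (adjusted p = 0.0675 by limma with the replicate block), that of delFG1 from the empty vector was -0.53, or 0.691-fold, and passed (adjusted p = 0.0211 with the block, 0.332 without it), and that of delFG2 was -0.09.

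Irf9 and Stat2, the DNA-binding and the activating subunit of the type I interferon factor, overlapped between the empty vector and full-length groups. Irf9 was at 7.74 and 7.97 with the empty vector, 8.01 and 7.78 with the full-length fusion, 7.67 and 7.69 with delFG1, and 7.89 and 7.82 with delFG2. Stat2 was at 8.09 and 7.95, 8.18 and 8.08, 7.81 and 8.02, and 8.48 and 7.79 in the same order. The delFG1 arrays of Irf9 were below those of every other group, and the delFG2 arrays of Stat2 held both the highest and the lowest of its 8 values. With the replicate block the 95% intervals of the full-length differences were -0.22 to 0.31 for Irf9 and -0.26 to 0.47 for Stat2.

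The 3 measured IFIT genes and Rsad2 gave no call in any comparison of groups by limma in either fit. Ifit1, whose product binds viral RNA that lacks a methylated cap, had values of 5.37 and 5.43 with the empty vector, 5.25 and 5.44 with the full-length fusion, 5.03 and 5.49 with delFG1, and 5.30 and 5.35 with delFG2. The group ranges overlapped except that both delFG2 arrays were under both empty vector arrays, and the lowest and the highest value both came from delFG1. The full-length difference of Ifit1 was -0.05, with a 95% interval of -0.27 to 0.16 with the replicate block. Ifit2 and Ifit3, relatives of Ifit1, differed by -0.00 and 0.01, with intervals of -0.26 to 0.26 and -0.14 to 0.16. Rsad2, the radical SAM enzyme viperin, differed by -0.05, with an interval of -0.28 to 0.18. Ifit1, Ifit3 and Rsad2 were among the 9 members at or below the median level of all probe sets, with Ifit3 between 4.93 and 5.10. Such low signals hold an unknown background, so their intervals do not bound a change in the RNA itself.

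Mx1 and Mx2, dynamin-like GTPases that trap incoming viruses, lay close to the lowest values of the arrays. Laboratory C57BL/6 mice are known to carry a defective Mx1 allele. Mx1 was at 4.77 and 4.80 with the empty vector, 4.72 and 4.74 with the full-length fusion, 4.78 and 4.79 with delFG1, and 4.80 and 4.75 with delFG2, and Mx2 kept between 4.64 and 4.75 in all 8 arrays. The range over the arrays was 0.08 for Mx1 and 0.11 for Mx2. The signal of these probe sets holds an unknown background, so a change in the RNA itself could be larger than the change in signal.

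Bst2 and Cmpk2 moved in opposite directions with the fusion. Bst2 codes for tetherin, which holds budding virus particles at the cell surface. Its values were 8.75 and 8.77 with the empty vector, 9.24 and 9.04 with the full-length fusion, 9.17 and 8.93 with delFG1, and 9.15 and 8.79 with delFG2. All fusion arrays lay above the empty vector arrays, the delFG2 array numbered 2 by the least. The full-length difference of 0.38, or 1.30-fold, had an SE of 0.10 and an adjusted p of 0.0455 by limma with the replicate block (0.458 without it). Of the 7 other processing settings with the block, 5 kept the call, and it was lost without the empty vector array numbered 1 or any full-length or delFG1 array.

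Cmpk2 codes for a mitochondrial kinase of pyrimidine nucleotides and neighbours Rsad2 in the genome. Its values were 8.13 and 8.24 with the empty vector, 7.57 and 7.93 with the full-length fusion, 7.62 and 8.03 with delFG1, and 7.73 and 8.15 with delFG2. Within each number the empty vector array was the highest, and each array numbered 2 was above its group mate. The full-length difference was -0.44, or 0.737-fold, with an SE of 0.11 and an adjusted p of 0.0348 by limma with the replicate block (0.528 without it). This call was lost without the same 5 arrays as that of Bst2.

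Isg20, an exonuclease that degrades single-stranded RNA, had higher values with the full-length fusion (9.04 and 9.21) than with the empty vector (8.69 and 8.97), or 0.30 apart (adjusted p = 0.176 by limma with the block). Its delFG1 values of 8.78 and 9.03 and delFG2 values of 9.14 and 8.96 overlapped those of the empty vector. No mutant passed against the full-length fusion for this gene.

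Trim30a was, beside Cmpk2, the other member that the block fit called lower in the full-length group. It codes for an interferon-induced protein that restrains inflammatory signalling. Its values were 9.97 and 10.19 with the empty vector, 9.50 and 9.87 with the full-length fusion, 9.68 and 9.90 with delFG1, and 9.59 and 10.04 with delFG2. The full-length and delFG1 arrays lay below both empty vector arrays, and the delFG2 array numbered 2 overlapped them. The full-length difference of -0.39, or 0.763-fold, had an SE of 0.08 and an adjusted p of 0.0186 by limma with the replicate block (0.542 without it). With number 1 it was -0.47 and with number 2 it was -0.31, and the call was lost without either full-length array or the empty vector array numbered 1.

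OAS enzymes make the messenger that switches on RNase L, and 5 OAS and OAS-like genes were measured. Against the empty vector 4 of them were above 0 and 1 below with the full-length fusion, from -0.36 to 0.16. With delFG1 2 were above 0 and 3 below, from -0.52 to 0.24. Oas2 had values of 6.65 and 6.69 with the empty vector, 6.21 and 6.41 with the full-length fusion, 6.01 and 6.30 with delFG1, and 6.13 and 6.52 with delFG2. All 6 fusion arrays lay below both empty vector arrays. Its difference from the empty vector was -0.36 with the full-length fusion (adjusted p = 0.0795 by limma with the block), -0.52 with delFG1 (0.0151 with the block, 0.297 without it) and -0.35 with delFG2 (0.228 with the block).

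The other OAS genes showed no call in any comparison. Oas3 had values of 6.89 and 7.29 with the empty vector, 7.33 and 7.13 with the full-length fusion, 6.64 and 7.07 with delFG1, and 7.34 and 7.06 with delFG2, so that 3 of the 4 groups overlapped each other and delFG1 lay under the full-length fusion. Oasl2, which codes for an OAS-like protein, had 6.42 and 6.46, 6.67 and 6.31, 6.26 and 6.17, and 6.49 and 6.23 in the same order. Oas1a and Oasl1 differed by 0.16 and 0.14 between the full-length fusion and the empty vector. Oas, Ifit and Gbp genes have close copies in the mouse genome, so part of a signal can come from a copy.

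Usp18 removes ISG15 from proteins and damps the interferon receptor, and it had the lowest unadjusted p of any member between delFG1 and the full-length fusion. Its values were 6.71 and 6.85 with the empty vector, 7.03 and 6.86 with the full-length fusion, 6.54 and 6.61 with delFG1, and 6.81 and 6.82 with delFG2. The delFG1 arrays were below all other arrays. The difference of delFG1 from the full-length fusion was -0.38 with an adjusted p of 0.676 by limma with the replicate block. Herc6, the ligase that attaches ISG15 in mouse, differed by 0.17 between the full-length fusion and the empty vector and did not pass.

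Of the GTPases induced by interferon gamma, Gbp3, a guanylate-binding protein that acts on vacuoles of pathogens, just missed the threshold. Its values were 6.48 and 6.48 with the empty vector, 7.04 and 6.95 with the full-length fusion, 7.23 and 6.64 with delFG1, and 6.76 and 6.40 with delFG2. Full-length and delFG1 arrays lay above the empty vector arrays, while delFG2 lay on both sides of them and below both full-length arrays. The full-length difference of 0.52 had an adjusted p of 0.0518 by limma with the replicate block and 0.437 without it, and that of delFG2 from the full-length fusion was -0.42 (0.370 with the block). Irgm1, a GTPase of the same response, differed by 0.16 between the full-length fusion and the empty vector. Of the further induced genes, Ifi35 (0.18), Xaf1 (0.03), Rtp4 (0.01) and Parp14 (-0.02) did not pass.

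**Figure D2:**
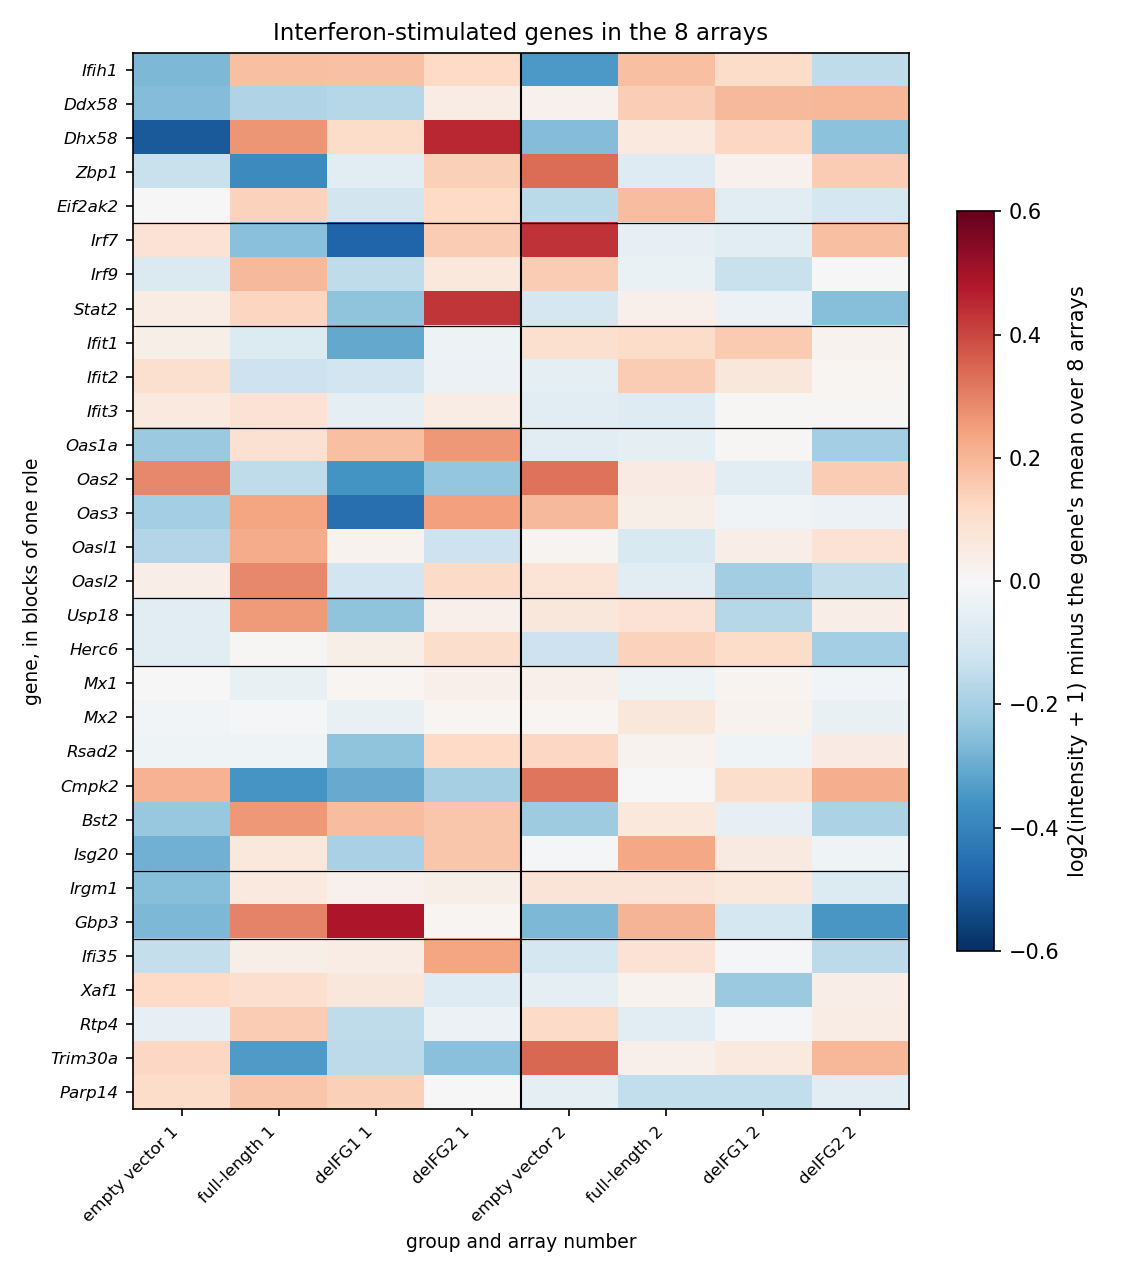
All 31 measured members (vertical axis, in blocks of one role) in the 8 arrays (horizontal axis, arrays numbered 1 left of the line and numbered 2 right of it). Colour is log2(intensity + 1) minus the gene's mean over the 8 arrays, from -0.51 to 0.48, and no array is coloured one way throughout.

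Sequence in front of the genes was set beside the values of the members. RefSeq promoter windows of assembly GRCm38.p6, each from 250 bases before to 50 bases after a gene's start, were found for 23 of the 31 measured members. The core of the interferon-stimulated response element, GAAA, any 2 bases and GAAA on either strand, occurred in a window of 13 of these 23 (56.5%), against 3.99% of the 27025 genes with a window. Stretches of 80 bases before the start are shown 5′ to 3′ on the strand of the gene for the members other than Oas2 that passed in a comparison, for Gbp3, which just missed it, and for effectors without a call. Capitals mark matches to the core, and in the reverse orientation the match reads TTTC, any 2 bases and TTTC; matches can overlap each other.
Bst2, chr8:71537555-71537634, minus strand: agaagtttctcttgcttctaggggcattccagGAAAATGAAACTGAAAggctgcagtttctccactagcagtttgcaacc
Gbp3, chr3:142559964-142560043, plus strand: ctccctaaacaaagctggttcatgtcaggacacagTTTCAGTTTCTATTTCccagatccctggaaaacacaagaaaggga
Trim30a, chr7:104465194-104465273, minus strand: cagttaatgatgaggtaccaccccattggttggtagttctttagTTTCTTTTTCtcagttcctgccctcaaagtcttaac
Ifih1, chr2:62646256-62646335, minus strand: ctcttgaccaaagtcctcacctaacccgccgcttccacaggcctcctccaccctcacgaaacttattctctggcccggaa
Cmpk2, chr12:26469135-26469214, plus strand: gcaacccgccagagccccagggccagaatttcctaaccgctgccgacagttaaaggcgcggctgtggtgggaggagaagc
Irf7, chr7:141266425-141266504, minus strand: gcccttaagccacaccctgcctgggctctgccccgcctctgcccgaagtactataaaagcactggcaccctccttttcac
Ifit1, chr19:34640759-34640838, plus strand: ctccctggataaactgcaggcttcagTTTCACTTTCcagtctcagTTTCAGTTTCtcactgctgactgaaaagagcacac
Ifit3, chr19:34583355-34583434, plus strand: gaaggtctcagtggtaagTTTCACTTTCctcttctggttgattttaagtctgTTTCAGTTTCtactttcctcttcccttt
Rsad2, chr12:26456528-26456607, minus strand: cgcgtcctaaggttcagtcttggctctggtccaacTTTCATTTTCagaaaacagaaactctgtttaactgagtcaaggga
Irgm1, chr11:48871421-48871500, minus strand: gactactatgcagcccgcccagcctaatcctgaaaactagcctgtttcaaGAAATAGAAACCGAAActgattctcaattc

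The core stood before genes that were higher (Bst2), lower (Trim30a) and not called (Ifit1, Ifit3, Rsad2) with the fusion, and Bst2, Gbp3, Ifit1, Ifit3 and Irgm1 each held it 2 times in the stretch shown. Ifih1 held it after its start, from base 33, and the windows of Cmpk2 and Irf7 held no match. The gamma-activated sequence TTCNNNGAA, which reads the same on both strands, occurred in a window of 6 of the 23 members (26.1%), against 9.55% of genes; in Bst2 it overlaps the first match to the core. The site TGATNNAT of PBX and HOX proteins, on either strand, occurred in 0 of 23, against 10.1% of genes. A match describes these letters only and shows no binding.

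Removing a part of NUP98 was followed by no called change in a member. Against the full-length fusion, 0 of 31 members passed with delFG1 by limma in either fit, where 0.00918% of all probe sets passed without and 0.078% with the replicate block, and 1 member, Usp18, had an unadjusted p under 0.05 without the block (2.07% of all). With delFG2 0 of 31 passed in either fit as well, against 0.0275% and 0.468% of all, and 0 had an unadjusted p under 0.05 without the block (2.76% of all). The median difference of the members was -0.04 in both comparisons, and 25 of 31 were below 0 with delFG1 and 20 of 31 with delFG2, where 49.2% and 52.3% of all probe sets were. In both numbers 15 members were below 0 with delFG1 and 7 with delFG2, and 10 and 17 members changed sign between the numbers. The delFG2 median was 0.02 with number 1 and -0.07 with number 2. With the replicate block the 95% interval of each member's difference lay inside a 2-fold change in both comparisons, between -0.76 and 0.65 in all, which does not show that the mutants and the full-length fusion act alike.

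Against the empty vector the mutants gave the following values, from comparisons that share the empty vector arrays with each other and with that of the full-length fusion. With delFG1 0 of 31 members passed by limma without the block (0.129% of all probe sets), and 5 had an unadjusted p under 0.05 (9.61% of all). With the replicate block 3 of 31, or 9.68%, passed, against 6.12% of all: Ifih1 (0.45, adjusted p = 0.0201) was higher, and Irf7 and Oas2 were lower. With delFG2 0 of 31 passed in either fit, against 0.00459% and 0.505% of all, and Ifih1 (0.29) and Dhx58 (0.49) had an unadjusted p under 0.05 without the block (4.43% of all). Between the mutants, delFG2 against delFG1, 0 of 31 passed in either fit, where 0% and 0.537% of all probe sets did. Irf7, with the only unadjusted p under 0.05 without the block (3.13% of all had one) and higher with delFG2 by 0.44, had an adjusted p of 0.195 by limma with the block.

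**Figure D3:**
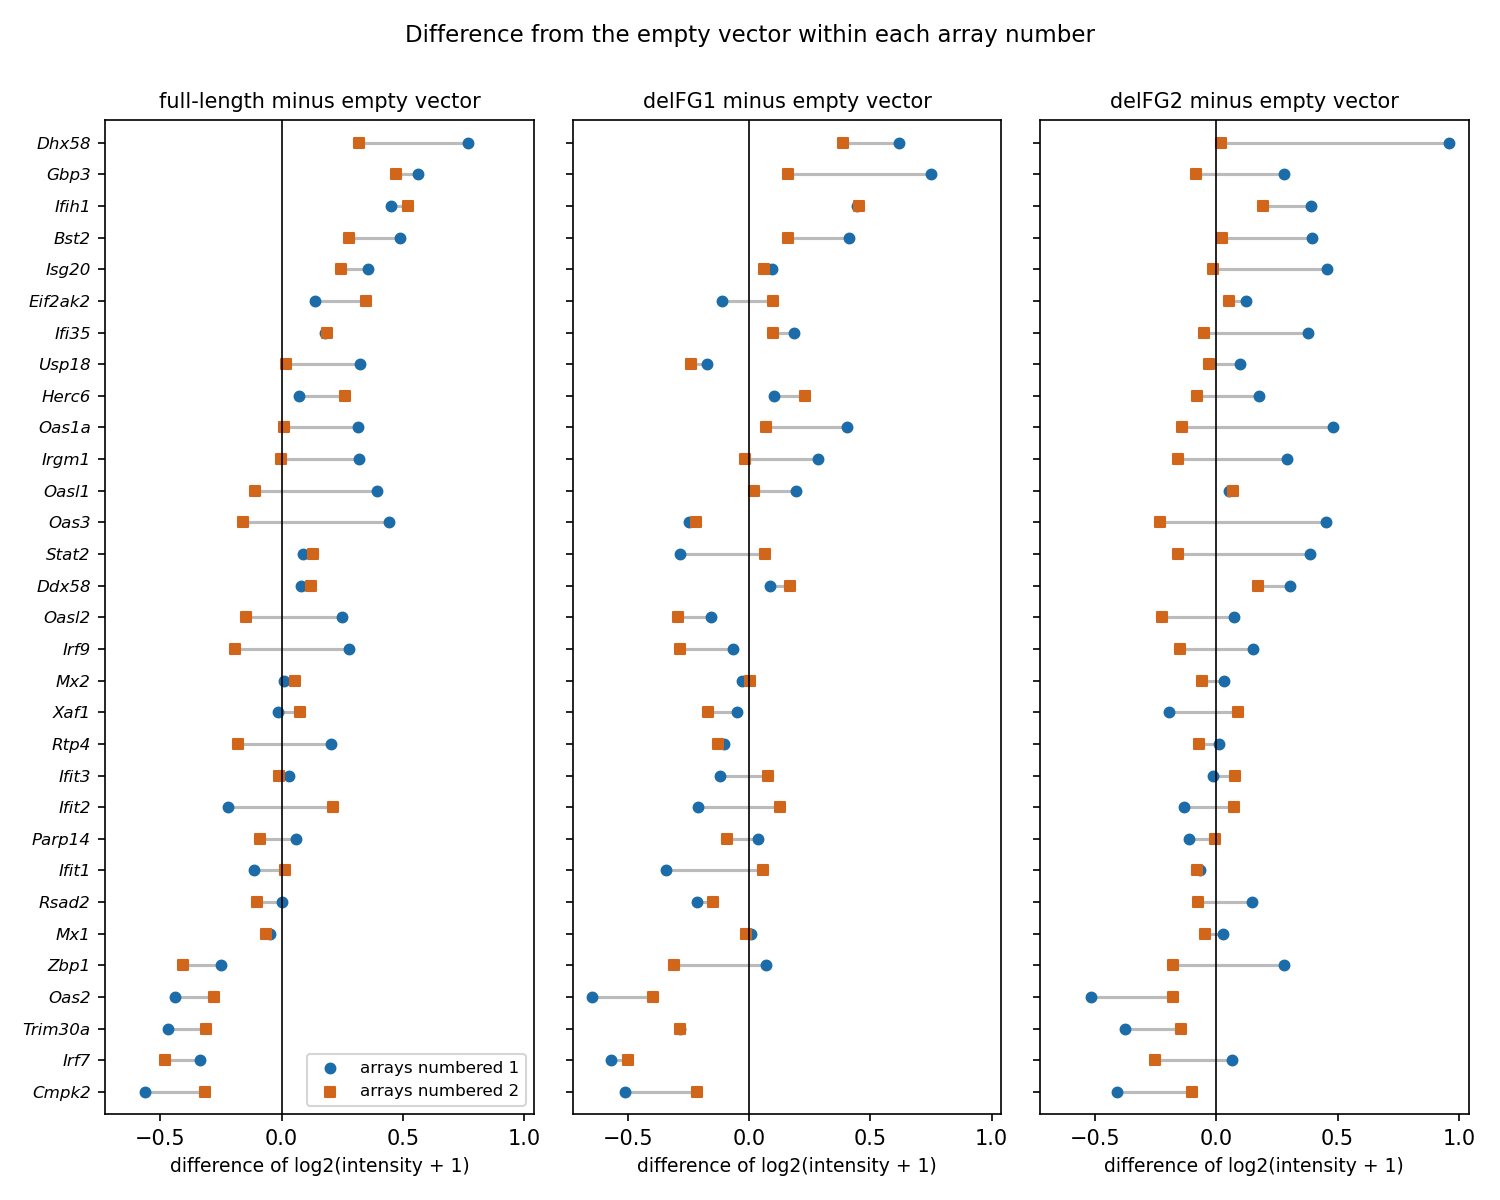
Difference of log2(intensity + 1) from the same-numbered empty vector array (horizontal axis) for each of the 31 members (vertical axis), with circles for arrays numbered 1 and squares for arrays numbered 2. In the delFG2 panel 0 of 31 squares and 12 of 31 circles lie beyond 0.3 in size.

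In the delFG2 group the distance of members from the empty vector differed between the numbers. Between the arrays numbered 1, 12 of 31 members differed by more than 0.3 in size and the median size was 0.19. Between the arrays numbered 2, 0 of 31 did and the median size was 0.08. Over all probe sets these shares were 12.7% and 4.09%, so the gap was not limited to the members. For Isg20 the delFG2 array minus the empty vector array was 0.46 with number 1 and -0.01 with number 2, and for Oas3 it was 0.45 and -0.23. With 1 array behind each of these values the gap was not tested.

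For the full-length fusion 14 of 31 members exceeded 0.3 with number 1 and 8 of 31 with number 2, against 15.9% and 10.8% of all probe sets. For delFG1 these were 9 of 31 and 5 of 31 members, against 15.4% and 8.89% of all. Each share of members was thus above that of all probe sets. Members also differed more between arrays of one group, with a median size of 0.167 against 0.103. The full-length difference had the same sign in both numbers in 20 of 31 members, 13 above 0 (41.9%, against 33.7% of all probe sets) and 7 below (22.6%, against 24.4%). Arrays of the full-length and empty vector groups did not overlap in 15 of 31 members (48.4%), against 39.1% of all probe sets.

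Over all 4 groups, 3 of 31 members differed between the numbers by limma in the fit with the block, 9.68% against 11.2% of all probe sets. Ddx58 (0.28, adjusted p = 0.0105), Cmpk2 (0.32, 0.0205) and Trim30a (0.31, 0.00687) were higher in the arrays numbered 2. The differences of Cmpk2 and Trim30a between the numbers are thus of the size of their differences between fusion and empty vector.

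The rest of the interferon pathway was read in 5 further lists, in which 0 genes passed between the full-length fusion and the empty vector without the block. Of all tested probe sets 0.124% passed in that fit. With the block 6.61% of them passed, 2.18% higher and 4.43% lower. Ligands came first. Of 18 interferon genes 15 were measured, with log2 values between 4.55 and 7.76 and 0 of them passed between the full-length fusion and the empty vector in either fit. With delFG1 against the empty vector 1 ligand gene, Ifna12, was higher by 0.25 (adjusted p = 0.0316 by limma with the block, 0.184 without it). Of all probe sets 6.12% passed there with the block. Ifna12 was at 4.65 and 4.72 with the empty vector and 4.92 and 4.95 with delFG1. These values lie close to 4.27, the lowest of any probe set, and hold an unknown background, so they do not show that the gene is expressed. The interferon beta gene Ifnb1 stayed between 4.79 and 5.12 over the 8 arrays. The gene of interferon gamma, Ifng, was at 5.62 and 5.64 with the empty vector and 5.65 and 5.72 with the full-length fusion.

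The fit with the block called 2 of the 6 receptor genes, both lower in the full-length group, where 4.43% of all probe sets were lower. Ifnlr1, which codes for the ligand-binding chain of the interferon lambda receptor, was at 6.60 and 7.41 with the empty vector and 6.22 and 6.57 with the full-length fusion, or -0.61 apart (adjusted p = 0.0214 by limma with the block). Il10rb, the chain that this receptor shares with the IL-10 receptor, differed by -0.28 (adjusted p = 0.0261 with the block). Ifnar1 and Ifnar2, the chains of the type I receptor, overlapped between the groups and did not pass. In the signalling list, which also holds the member Usp18, 0 of 9 measured genes passed, with Jak1 at 11.38 and 11.46 against 11.14 and 11.31.

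Among 14 adaptors and factors of interferon induction, Tlr7 and Tlr3 were lower with the block, against 4.43% of all probe sets. Tlr7, the endosomal receptor of single-stranded RNA, was at 8.75 and 9.34 with the empty vector, 7.78 and 8.36 with the full-length fusion, 7.67 and 8.28 with delFG1, and 8.23 and 8.75 with delFG2. The full-length and delFG1 arrays lay below both empty vector arrays, and the delFG2 array numbered 2 overlapped them. The full-length difference was -0.98, or 0.508-fold, with an adjusted p of 0.000155 by limma with the block (0.335 without it). That of delFG2 from the empty vector was -0.55 (0.0314 with the block), and delFG2 exceeded delFG1 by 0.52 (0.0357 with the block). Tlr3, the receptor of double-stranded RNA, differed by -0.56 with the full-length fusion (adjusted p = 0.0114 with the block).

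**Figure D4:**
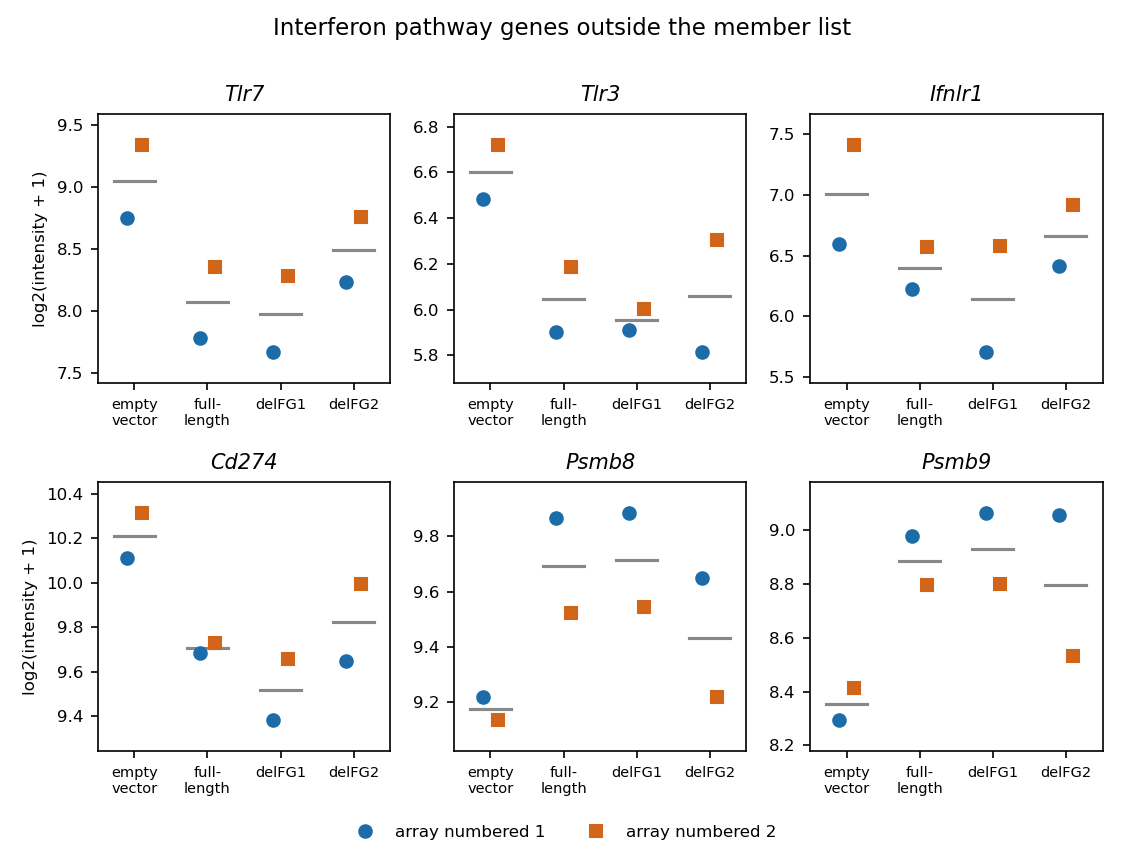
Signal of 6 pathway genes outside the member list in each array, with log2(intensity + 1) on the vertical axis, the 4 groups on the horizontal axis, circles and squares for arrays numbered 1 and 2 and grey bars for group means. Tlr7, Tlr3, Ifnlr1 and Cd274 are lower, and Psmb8 and Psmb9 higher, in each full-length array than in the same-numbered empty vector array.

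The block fit called 6 of the 36 measured further interferon-induced genes in the full-length group, 3 of them higher and 3 lower. Of all probe sets it called 2.18% higher and 4.43% lower. The immunoproteasome subunits Psmb8 (0.52, adjusted p = 0.00793) and Psmb9 (0.53, 0.0335), which cut peptides for MHC class I, and the guanylate-binding protein gene Gbp5 (0.42, 0.0181) were higher. Cd274, the checkpoint ligand PD-L1 (-0.50, 0.00558), Samhd1, which degrades deoxynucleotides (-0.25, 0.0342), and Ifi27 (-0.46, 0.0480) were lower by limma with the block. Psmb8 was at 9.22 and 9.14 with the empty vector and at 9.87 and 9.52 with the full-length fusion. No gene of the 5 lists passed with delFG1 or delFG2 against the full-length fusion in either fit. Against the empty vector, the block fit called Psmb8, Psmb9 and Tap2 higher with delFG1 and Cd274, Samhd1, Trim25 and Ifi27 lower. Of the receptor and induction lists it called Ifngr1 higher and Ifnlr1, Tlr7 and Tlr3 lower, where 6.12% of all probe sets passed. With delFG2 against the empty vector only Tlr7 passed in these lists, against 0.505% of all.

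Markers of other cells were set beside these results. In bulk RNA, fewer cells of a type and less RNA per cell cannot be told apart. Of 13 measured monocyte and macrophage markers 7 were lower and 1 higher with the full-length fusion by limma with the block. Of all tested probe sets 4.43% were lower and 2.18% higher in that fit, which also holds for the lists below. The higher marker, Ly86, was at 7.64 and 8.33 with the empty vector and 9.33 and 9.36 with the full-length fusion. The summed intensity of the 13 markers was 13260 and 17540 with the empty vector and 9854 and 11610 with the full-length fusion. Macrophages express Tlr7, Cd274 and Cmpk2, and the part of these markers in the lower values was not tested. Plasmacytoid dendritic cells carry Bst2 and Irf7 at high level. Of 8 measured markers of these cells 0 passed, the defining marker Siglech was at 5.62 and 5.61 with the empty vector and 5.85 and 5.66 with the full-length fusion, and the summed intensity of the 8 was 844.7 and 871.1 against 875.6 and 904.0. Calls by limma with the block in the other lists were 1 higher and 5 lower of 12 for neutrophils. For mast cells they were 1 and 4 of 6, and for stem and progenitor cells 2 and 0 of 6. For conventional dendritic cells they were 1 (H2-Ab1) and 0 of 8, and for T and NK cells 1 (Thy1) and 0 of 8. With 1 gene called in each, these 2 lists do not show a rise of their markers as a set. In the B cell, erythroid and stroma lists 0 passed. Between delFG2 and the full-length fusion, where no member passed, 0.468% of all probe sets passed by limma with the block. In that fit 2 macrophage, 3 neutrophil and 1 mast cell marker were higher. Of the stem and progenitor markers 2, Meis1 and Cd34, were lower.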

How the data were processed

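The values are linear intensity values that the authors deposited for 28853 probe sets in 8 arrays of total RNA, labelled for whole-transcript arrays per the labels. The sources used here do not give their background correction, summarisation or normalisation. Values were used as log2(intensity + 1) without further normalisation. The 21789 probe sets with 1 symbol in the platform annotation were tested with limma 3.58.1 (lmFit, eBayes with intensity trend) in R 4.3.3, over all 8 arrays with 4 group means; 1621 with several symbols and 5443 with none were left out. Residual degrees of freedom were 4, and 3 with the replicate block.

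As a check of pairing, each array's deviation from its group mean was correlated over probe sets with that of the same number in another group. The correlation ran from 0.401 to 0.640 over the 6 group pairs, so the numbers, taken from the labels, were treated as pairing the arrays. All p-values are two-sided.

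All values were to be given for members that passed in any group comparison in either fit, for the 3 largest rises and falls among members in each comparison of the full-length fusion with the empty vector or a mutant, and for Irf7, Irf9, Stat2, Isg15, Ifit1 and Mx1; Isg15 has no probe set of its own. Isg20, Tlr7 and the other pathway genes with values are examples. The members and lists were chosen with earlier results of these data known. All 31 measured members matched the RefSeq gene table by Entrez number. Motif and model code was tested on simulated data.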

Additional observations from a re-analysis of the deposited data

How the results depend on the processing

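Without the replicate block, the count of members that passed was 0 in all 6 comparisons under median centring, quantile normalisation, a pseudocount of 16, a filter on probe sets below the median level, no intensity trend, the mean of a gene's probe sets, a fit of the compared groups alone, and each array left out. With the replicate block it was 4 with the full-length fusion and 3 with delFG1, each set against the empty vector. Combined with the block, a choice made after seeing the data, the full-length count was 5 with median centring, quantile normalisation, the mean of a gene's probe sets or the compared groups alone, 6 with the level filter, 4 with a pseudocount of 16 and 3 without the trend; the delFG1 count was 4 with the compared groups alone and 3 otherwise.

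With the block and 1 array left out, the full-length count lay between 0 (without either full-length array) and 7 (without the empty vector array numbered 2). The delFG1 count lay between 0 (without the empty vector or the delFG1 array numbered 1) and 7 (without the empty vector array numbered 2), that of delFG2 against the empty vector between 0 and 1 (without the empty vector array numbered 2), and that between the numbers between 0 (without either full-length array) and 6 (without either empty vector array). The number of arrays limits the precision, and 9 members had a mean at or below the median level of all probe sets. Over all probe sets the full-length count was 27 without and 1440 with the block. No call of a named member changed sign under any of these settings.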
